A study of Drosophila melanogaster with 2 samples.

Results

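The 10 Polycomb group genes ph-p, ph-d, Pc, Psc, Su(z)2, Sce, E(z), esc, Su(z)12 and pho were examined for places where the tagged protein CG7556-GFP was found on chromatin. They are 10 of 13945 protein-coding genes on the chromosome arms and were all matched by symbol in the Ensembl annotation. The list of names was chosen with earlier results of these data known. A summit, the highest point of a deposited region, was counted for a gene when it lay in the gene span or within 2 kb on either side, here called the window. Of the 7184 summits in the authors' optimal list, the regions that passed their reproducibility threshold, 20 lay in these windows. The study is a chromatin immunoprecipitation with an anti-GFP antibody, followed by sequencing, in whole Drosophila melanogaster embryos of both sexes aged 0 to 24 h. All embryos carried a transgene for CG7556 fused at its C-terminus to eGFP, and the embryos were otherwise untreated as far as the labels say. The 2 samples are biological replicates of this single group, and there was no second condition to test against. The embryos were whole, so a region may come from some cell types only, and the antibody's background in flies without the tag was not analysed here. Coordinates are 1-based positions of build dm6, and the signal of a region is the authors' own value, whose scale the sources leave unstated.

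Polycomb group proteins keep developmental genes, the Hox genes best known among them, switched off in cells where they should stay silent. Polycomb repressive complex 1 (PRC1) binds and compacts chromatin and ubiquitinates histone H2A, and Polycomb repressive complex 2 (PRC2) methylates lysine 27 of histone H3. In flies, DNA-binding proteins such as Pho bring the complexes to Polycomb response elements. The values below say where CG7556-GFP lay at the genes that encode these proteins. They do not measure the Polycomb proteins, and the lists hold no expression.

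An optimal summit lay in the window of 7 of the 10 genes, against 38.1% of all protein-coding genes. The 7 were ph-p, ph-d, Pc, Psc, Su(z)2, E(z) and Su(z)12, and the 3 without one were Sce, esc and pho. The windows of the 10 genes ran from 5.6 to 19.0 kb with a median of 12.4 kb, longer than the median of 6.17 kb over all coding genes. With coding genes split by window length into 4 groups of about equal size, 21.7%, 32.6%, 38.9% and 59.3% had an optimal summit, from the shortest windows to the longest. Of the 10 genes, 7 fell in the group of longest windows, 2 in the next and 1 in the one below it. A summit of the pooled list, which also holds background regions, lay in the window of the same 7 genes, against 59.8% of coding genes. The optimal summits of these genes are also in the pooled list, so only Sce, esc and pho could have been added. Within 500 bp of a start site, 4 of the 10 had an optimal summit (ph-p, ph-d, E(z) and Su(z)12), against 21.1% of coding genes. The highest signal in the window had a median of 895 over the 7 genes and of 332 over the 5317 coding genes with an optimal summit. This comparison was not split by window length. The windows of ph-p, ph-d, Pc, Psc, Su(z)2, E(z) and Su(z)12 held 6, 3, 2, 2, 4, 1 and 2 optimal summits, 20 in all. Over those 5317 genes the median was 1 per gene, and this too was not split by window length. The value for Pc came from a summit 92 bp from a start site of CG11309. No test was run on these counts, because the genes were chosen with results of these data known.

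**Figure D1:**
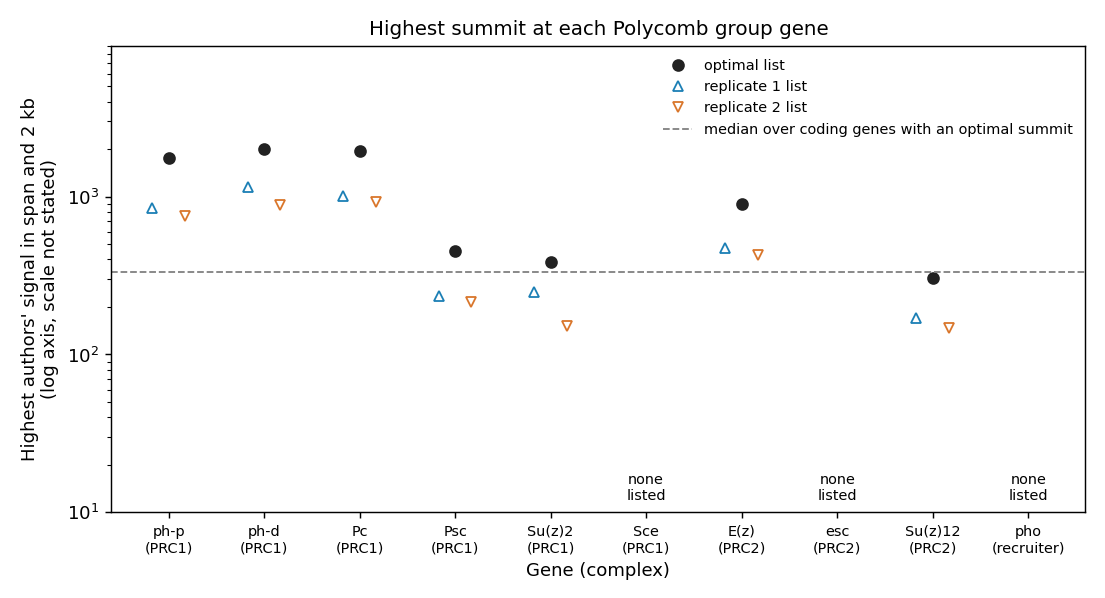
Highest signal in the window of each gene (log axis) in the optimal list and in each replicate list, with genes ordered by complex. ph-p, ph-d and Pc reach 1751 to 1994 in the optimal list, E(z) 895, Su(z)12 stands at 307 below the dashed median of 332, and 3 genes have no listed summit.

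The tandem genes ph-p and ph-d carried strong summits within 1 kb of their own start sites. Both encode Polyhomeotic proteins, PRC1 subunits whose SAM domain lets them form chains. They lie on the minus strand of X, with ph-p (FBgn0004861) from 2126210 to 2138371 and ph-d (FBgn0004860) downstream of it from 2115727 to 2123286. Only 2923 bp separate them. The ph-p window held 6 optimal summits and the ph-d window 3. A count of 3 or more was reached by 7.9% of coding genes and, here, by ph-p, ph-d and Su(z)2. A summit among the 100 strongest of the optimal list lay in the window of 1.18% of coding genes and of ph-p, ph-d and Pc. The Pc summit lay 1579 bp past the gene and 92 bp from a start site of CG11309. Neither percentage was split by window length, and ph-p, ph-d, Pc and Su(z)2 all had windows above the upper quartile of 9.0 kb. Both limits, 3 summits and the 100 strongest, were chosen after the values were seen.

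At ph-p the strongest stretch, 1309 bp long, carried 3 summits around its 5' start sites. They lay at 2137790 (signal 1751, rank 90 of 7184), 2137376 (signal 1512, rank 130) and 2137989 (signal 1340.0, rank 171). Only 0.196% of the 6125 separate optimal stretches were as wide or wider, and 0.359% held 3 or more summits. The first and last of these summits fell in 5' UTR, 581 and 382 bp downstream of the start site at 2138371, and the middle one in an intron, 521 bp upstream of the start site at 2136855. The highest signal in this stretch was 846 in replicate 1 (rank 112) and 750.1 in replicate 2. Each replicate listed 2 summits there instead of 3. Further downstream, an intronic stretch 1302 bp past the start site at 2136622 reached 889.5 (rank 428), with 480 in replicate 1 and 415 in replicate 2. A shoulder in the same stretch at 2135531 had a signal of 202 (rank 4617). The most downstream summit, 2214 bp past the start site at 2136622, had a signal of 296 (rank 2749).

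At ph-d the strongest summit lay outside the gene, at 2124161 in the interval between the pair. It stood 875 bp upstream of the ph-d start site at 2123286, with a signal of 1994 and rank 57. In replicate 1 its signal was 1152 (rank 36) and in replicate 2 882 (rank 76). Replicate 2 listed a second summit in that stretch at 2124300, with a signal of 624 (rank 184). That summit also lay inside the ph-p window, since the windows of the pair share 1077 bp. The other ph-d summits were weaker, with 306 (rank 2616) in 5' UTR 174 bp past the start site and 211 (rank 4376) in an intron 331 bp upstream of the start site at 2121792. The pair thus carried peaks of like strength, inside the annotated span at ph-p and upstream of it at ph-d. This contrast rests on the most upstream ph-p start site, at 2138371. The whole 1309 bp stretch lies upstream of the other ph-p start sites, at 2136855 and 2136622.

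The ratio of the highest signal at ph-p to that at ph-d was 0.878 in the optimal list, 0.734 in replicate 1 and 0.850 in replicate 2. The higher value belonged to ph-d in both replicates, but this rests on the upstream flank. Counted in the gene spans alone, ph-d reached only 306 and the ratio was 5.72. The ph-p span here runs from its most upstream start site, at 2138371. An exact paired sign-flip permutation test of the ratio over the 2 replicates gave a two-sided p of 0.5, the smallest it can give.

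**Figure D2:**
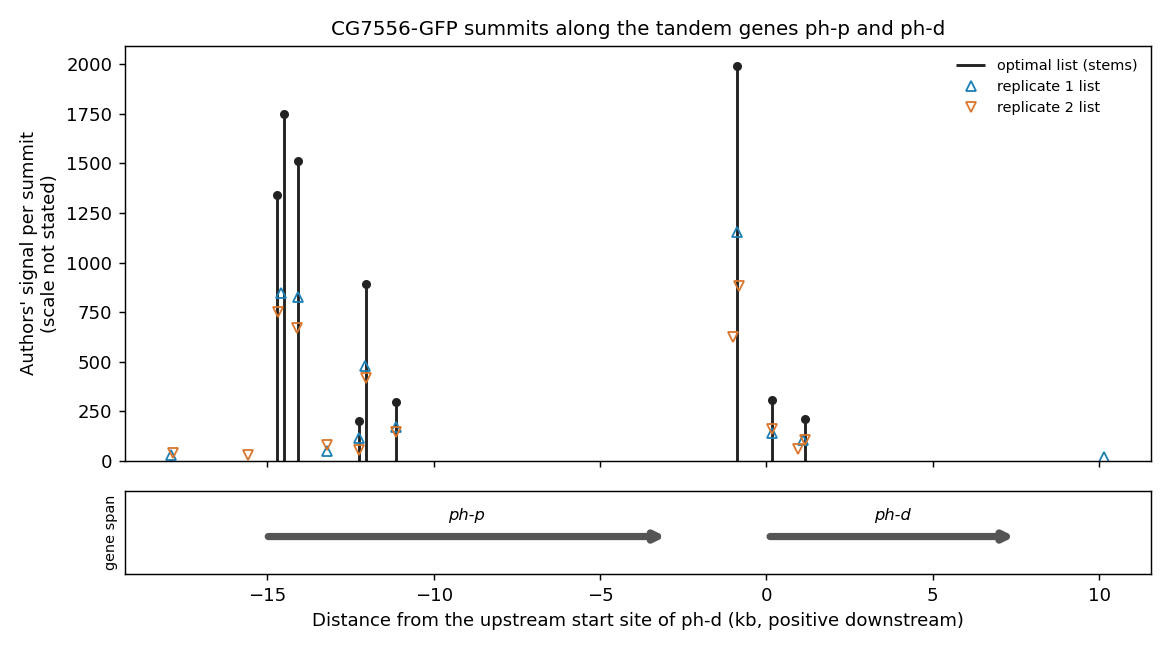
Signal of each summit along ph-p and ph-d, in kb from the upstream start site of ph-d, with both genes transcribed to the right. Stems are optimal summits and triangles the replicate lists. ph-p carries 3 stems from 1340.0 to 1751 at its 5' end, and the 1994 stem of ph-d stands 875 bp upstream of its start.

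Copies of a gene can share reads, so the pair was also compared by sequence. The proteins, translated from the longest annotated coding sequence of 1589 and 1537 residues, were identical at 88.9% of 1514 aligned positions. Of all words of 50 bases in the ph-p span, 18.8% occurred exactly in the ph-d span, and 30.4% of those in ph-d occurred in ph-p. The bound regions were more distinct. The words of the ph-d regions were all found once in the genome (100%), as were those of all ph-p regions except the 1309 bp stretch, where 98% were. The longest run of bases that the strongest stretches of the pair shared exactly was 23.

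The sequences under these summits are shown because they are the 6 optimal summits of the tandem genes that lie outside annotated UTRs. Each is the plus strand of the RefSeq Release 6 genome, 100 bp to either side of the summit, 5' to 3'. Capitals mark matches on either strand to 7 short motifs described further on. A match is a description and not a binding site.
ph-d, upstream summit, chrX:2124061-2124261, signal 1994: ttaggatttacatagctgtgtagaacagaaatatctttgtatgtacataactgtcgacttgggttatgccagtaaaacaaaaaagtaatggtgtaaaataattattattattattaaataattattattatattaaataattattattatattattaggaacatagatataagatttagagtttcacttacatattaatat
ph-p, upstream of its start site at 2136855, chrX:2137276-2137476, signal 1512: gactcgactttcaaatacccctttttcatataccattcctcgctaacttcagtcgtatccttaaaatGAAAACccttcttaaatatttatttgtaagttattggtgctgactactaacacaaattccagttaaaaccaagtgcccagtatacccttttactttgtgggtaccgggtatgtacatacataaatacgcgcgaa
ph-p, intron, chrX:2135220-2135420, signal 889.5: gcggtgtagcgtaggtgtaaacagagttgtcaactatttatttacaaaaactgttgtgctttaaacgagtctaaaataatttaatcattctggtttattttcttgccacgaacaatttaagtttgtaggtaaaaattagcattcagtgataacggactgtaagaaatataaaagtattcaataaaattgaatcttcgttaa
ph-p, intron shoulder, chrX:2135431-2135631, signal 202: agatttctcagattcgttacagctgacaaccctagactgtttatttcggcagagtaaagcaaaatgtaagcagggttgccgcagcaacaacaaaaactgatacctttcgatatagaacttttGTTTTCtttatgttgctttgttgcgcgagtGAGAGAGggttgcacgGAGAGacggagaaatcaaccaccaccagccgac
ph-p, intron, most downstream summit, chrX:2134308-2134508, signal 296: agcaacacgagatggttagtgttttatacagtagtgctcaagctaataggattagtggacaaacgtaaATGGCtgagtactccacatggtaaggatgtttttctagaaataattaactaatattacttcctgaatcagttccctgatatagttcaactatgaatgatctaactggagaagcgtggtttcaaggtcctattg
ph-d, intron, chrX:2122023-2122223, signal 211: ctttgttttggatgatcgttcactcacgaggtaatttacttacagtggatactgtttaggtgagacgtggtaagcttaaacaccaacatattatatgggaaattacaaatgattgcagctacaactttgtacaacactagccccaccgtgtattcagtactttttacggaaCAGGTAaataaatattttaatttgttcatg
The strongest of these, at ph-d, was also the poorest in G and C, at 20.4%. Only 1.68% of all optimal summit windows had as little or less. The weakest, the ph-p intron shoulder, was the only one of the 6 with GAGAG, which it held 3 times, with overlapping matches counted.

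Pc encodes the chromodomain subunit of PRC1, which recognises methylated lysine 27 of histone H3. The gene (FBgn0003042) lies on the minus strand of 3L from 21306138 to 21318020 and had no optimal summit in its span. The optimal stretch in its window lay past its 3' end, with a summit at 21304559 (signal 1936, rank 64) 1579 bp beyond the gene and 13461 bp from the Pc start site. That summit was 92 bp from a start site of CG11309 and inside an intron of that gene. A weaker summit in the same stretch at 21304761 (signal 183, rank 5177) was 64 bp downstream of a start site of CG7632. The stretch reached 1010 in replicate 1 (rank 64) and 926 in replicate 2 (rank 66). At the Pc start site itself the pooled list held only weak regions, at 14 and 256 bp downstream, with signals of 50 (rank 17897) and 68.1 (rank 14073). These lie below the lowest optimal signal of 137. Annotated transposable elements covered 57.3% of the Pc window, and 43.1% of its words of 50 bases were found once in the genome. The part of this in the missing summits was not tested.

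Sce, also called dRing, encodes the PRC1 subunit that ubiquitinates histone H2A. It is a short gene (FBgn0003330) on the minus strand of 3R, from 27680431 to 27682029. No list, pooled or replicate, held a summit in its window, which also reaches CG12883 and Hsdl2. The nearest optimal summit, 2980 bp outside the gene, was weak (signal 143, rank 6864) and 71 bp upstream of Hsdl2. All words of 50 bases in the Sce window were found once in the genome.

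Psc and Su(z)2 encode related RING finger proteins. Psc is a PRC1 subunit that compacts chromatin, and Su(z)2 is partly redundant with it. The pair lies head to head on 2R, with Psc (FBgn0005624) on the minus strand from 12965997 to 12980994 and Su(z)2 (FBgn0265623) on the plus strand from 12996501 to 13007911. Their proteins were identical at 27.4% of 1216 aligned positions, and no word of 50 bases was shared by the gene spans. Psc had 2 optimal summits, both intronic and far from its start sites. The stronger, at 12975598, lay 5060 bp downstream of a start site with a signal of 452 (rank 1459), 234 in replicate 1 and 215 in replicate 2. The weaker, at 12972866, lay 7792 bp downstream with 170 (rank 5638), and reached 93.6 in replicate 1 and 70.0 in replicate 2.

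Su(z)2 had 4 optimal summits, 3 of them past its 3' end. Those 3 lay 378, 577 and 1237 bp beyond the gene with signals of 386 (rank 1849), 270.1 (rank 3118) and 146 (rank 6704). The other was intronic, 8270 bp from a start site, with a signal of 179 (rank 5291). All were modest, and the replicates differed more here than at other members. The first stretch past the gene reached 249 in replicate 1 (rank 1336) and 152 in replicate 2 (rank 2656). The intronic stretch went the other way, with 68.0 in replicate 1 and 108 in replicate 2. So did the most distant one, with 60.1 against 96.1.

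At their start sites, both genes had only regions below the optimal list. The strongest pooled value was 121 (rank 8188) at Psc, 23 bp upstream of a start site, and 83.4 (rank 11788) at Su(z)2, 292 bp downstream of one. In replicate 2 alone, the Psc region reached 106 (rank 4443), and the highest within 500 bp of a Psc start site in replicate 1 was 49.0 (rank 10811). Stronger summits stood outside both windows. In the 15506 bp between their start sites, 3 optimal summits were listed, of which the highest, at 12985212, had a signal of 2934 and rank 11 of 7184. It reached 1634 in replicate 1 (rank 7) and 1303 in replicate 2 (rank 12). It lay 4218 bp upstream of Psc and 155 bp upstream of lncRNA:CR44339. The other 2, at 12991353 and 12991556, had signals of 1021 (rank 332) and 910.1 (rank 409). Past the 3' end of Psc, summits of 1804 (rank 82) and 1630.2 (rank 110) stood at 6580 and 7796 bp. Another summit of rank 9 (signal 3022) stood in intergenic sequence 27427 bp past the 3' end of Su(z)2. None of these 6 counts for either gene under the 2 kb rule.

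**Figure D3:**
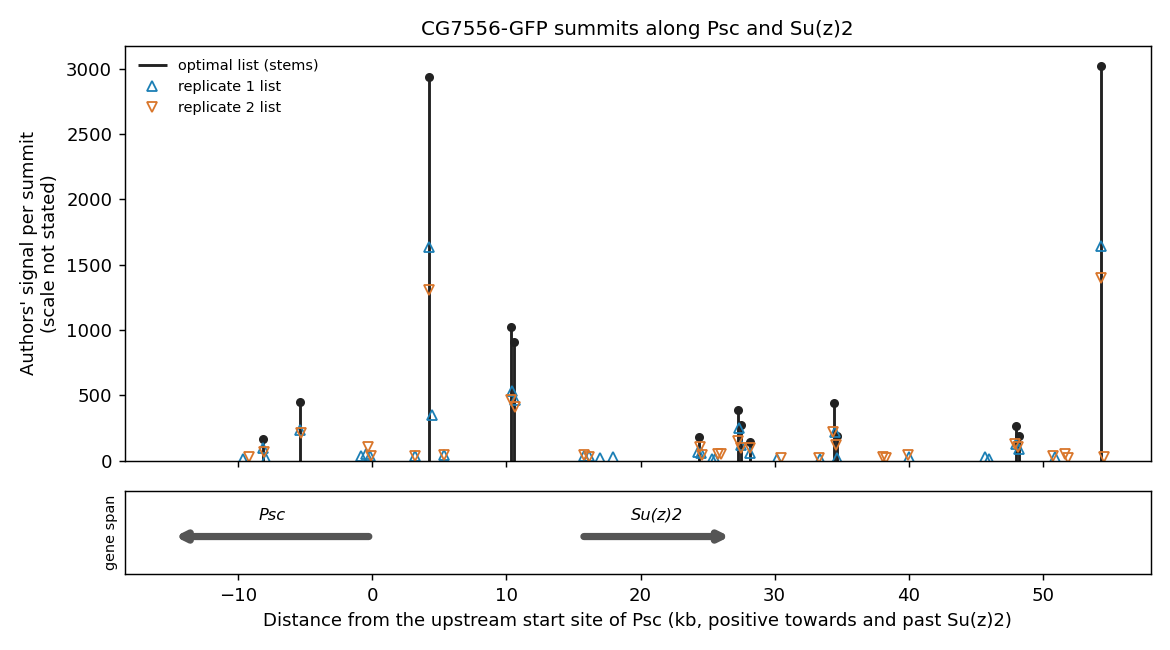
Signal of each summit along Psc and Su(z)2, in kb from the upstream start site of Psc, with stems for optimal summits and triangles for the replicate lists. The windows of the genes hold no stem above 452, while stems of 2934 and 3022 stand between the genes and past Su(z)2, both outside the windows; the summits past the 3' end of Psc lie left of the plotted range.

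Among the PRC2 genes, E(z) encodes the methyltransferase itself. It had a single optimal summit, at its promoter. The gene (FBgn0000629) lies on the minus strand of 3L from 10634575 to 10638130, and the summit at 10638030 was 100 bp downstream of its first start site, in an intron. Its signal was 895 (rank 421 of 7184), with 471 in replicate 1 (rank 434) and 425 in replicate 2 (rank 439). The ranks in the 3 lists were thus close. No other region of any list lay in the E(z) window.

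Su(z)12 encodes a PRC2 subunit that the methyltransferase needs for its activity. The gene (FBgn0020887), on the minus strand of 3L from 19918242 to 19923462, had a summit in its 5' UTR 70 bp past its start site, with a signal of 307 (rank 2597), 170.1 in replicate 1 and 147 in replicate 2. A second summit stood 129 bp upstream with 271 (rank 3101), 119 in replicate 1 and 124 in replicate 2. Its nearest start site, 80 bp away, was that of Pfdn6, which is transcribed in the other direction. The second summit may therefore be counted for either gene.

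The E(z) and Su(z)12 summits had the following sequence outside annotated UTRs, on the plus strand of the RefSeq Release 6 genome, shown because these are the PRC2 promoters with a peak. Capitals again mark motif matches.
E(z), intron between stretches of 5' UTR, chr3L:10637977-10638041, signal 895: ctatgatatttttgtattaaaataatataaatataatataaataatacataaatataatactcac
Su(z)12 and Pfdn6, between their start sites, chr3L:19923491-19923670, signal 271: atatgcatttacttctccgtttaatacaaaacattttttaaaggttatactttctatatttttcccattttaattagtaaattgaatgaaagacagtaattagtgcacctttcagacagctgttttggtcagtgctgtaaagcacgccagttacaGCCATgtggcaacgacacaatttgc
The E(z) piece holds no match and is made mostly of A and T. Over the full 201 bp window its G and C content was 23.9%, and 7.06% of optimal windows had as little or less. The capitals in the Su(z)12 piece are a match to GCCAT, the core recognised by Pho.

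The third PRC2 gene, esc, encodes a WD repeat protein that binds methylated lysine 27 and stimulates the enzyme. Like Sce it is short (FBgn0000588, minus strand of 2L, 11827204 to 11829405), and no list held a summit in its window. The nearest optimal summit, 3517 bp away in an intron of Pde1c, was weak (signal 144, rank 6805). Its paralogue escl, at 59.7% protein identity over 419 aligned positions, had no optimal summit either, but the pooled list had 3 in its window, with a highest signal of 66.6.

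The DNA-binding recruiter gene pho (FBgn0002521) lies on chromosome 4 from 1172469 to 1181628 on the minus strand. No list held a summit in its window, and the nearest optimal summit was 59172 bp away. Chromosome 4 had 13 optimal summits in all, and 11.2% of its 80 coding genes had one in the window, against 35.2% to 40.8% on the other arms. Annotated transposable elements covered 41.2% of the pho window, yet 91.9% of its words of 50 bases were found once in the genome. The part of the chromosome in the absence at pho was not tested.

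Most PRC1 summits lay more than 500 bp from a start site of their gene, and the 3 PRC2 summits lay closer to one. An optimal summit was in the window of 5 of 6 PRC1 genes and of 2 of 3 PRC2 genes, against 38.1% of coding genes. Of the 6 PRC1 genes, 5 fell in the group of longest windows, where 59.3% of coding genes had one. Of the 3 PRC2 genes, 2 fell in the next group, where 38.9% had one, and 1 in the longest. Within 500 bp of a start site the counts were 2 of 6 and 2 of 3, against 21.1% of coding genes. The 3 PRC2 summits, from E(z) and Su(z)12 alone, lay within 500 bp of a start site of their gene, at 70 to 129 bp. Of the 17 PRC1 summits only 3 did, and the distances of the 17 ran from 174 to 13461 bp with a median of 2214 bp. All ph-p and ph-d summits lay within 2214 bp of an own start site, and those of Pc, Psc and Su(z)2 at 5060 bp or more. Measured to the nearest start site of any gene, 5 of the 17 PRC1 summits lay within 500 bp, since both Pc summits are near starts of CG11309 and CG7632, and the median distance was 1091 bp. Over the optimal list, on that same measure, 40.6% of summits were within 500 bp, and the median distance was 909 bp. The median signal per summit was 306 for PRC1 and 307 for PRC2, while the highest was 1994 against 895. PRC1 windows were longer, at a median of 15.7 kb against 7.56 kb for PRC2, which leaves more room for distant summits. No test was run, since 6 and 3 genes are not replicates and neighbouring summits share a stretch.

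**Figure D4:**
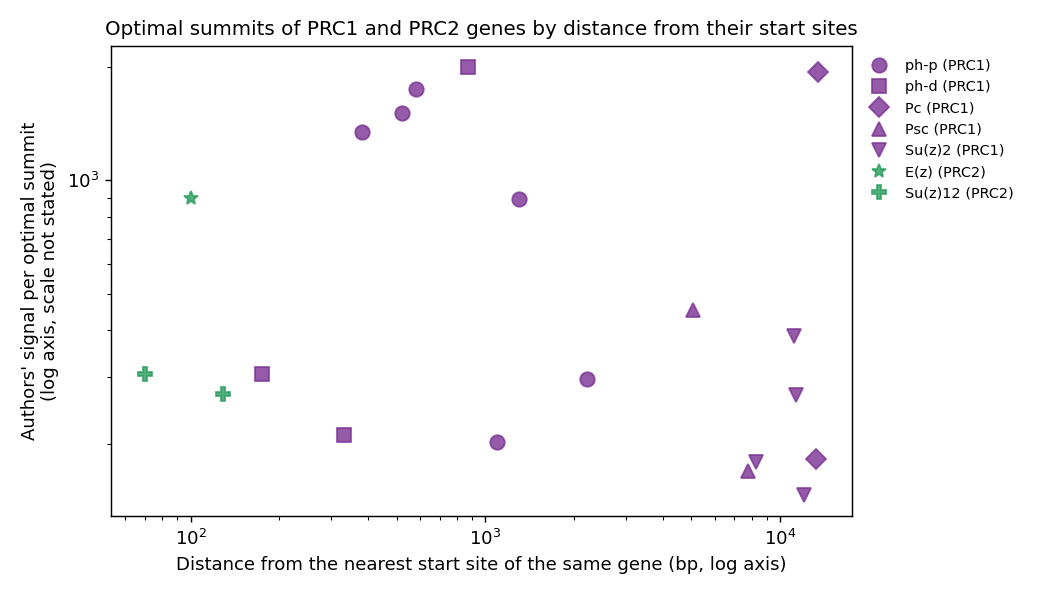
Signal of each of the 20 optimal summits against its distance from the nearest start site of the same gene, both on log axes. The 3 PRC2 summits sit at 70 to 129 bp, and the PRC1 summits range from 174 to 13461 bp, with Pc farthest.

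The replicates gave like values at most members. The 20 summits fell in 15 separate optimal stretches, all listed in both replicates, as were 5977 of all 6125 optimal stretches. The optimal list had already been thresholded for reproducibility. The ratio of replicate 1 to replicate 2 ran from 0.626 to 1.63 over them, and it was above the median of all stretches, 1.08, in 10 of 15. Over the 5977 optimal stretches listed in both replicates, the 5th percentile was 0.615 and the 95th 1.6, and 14 of the 15 fell between them. The exception and the lowest values all belonged to Su(z)2. At the 5 stretches of ph-p, ph-d, Pc and E(z) with a signal above 800, the ratio ran from 1.09 at Pc to 1.31 at ph-d.

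**Figure D5:**
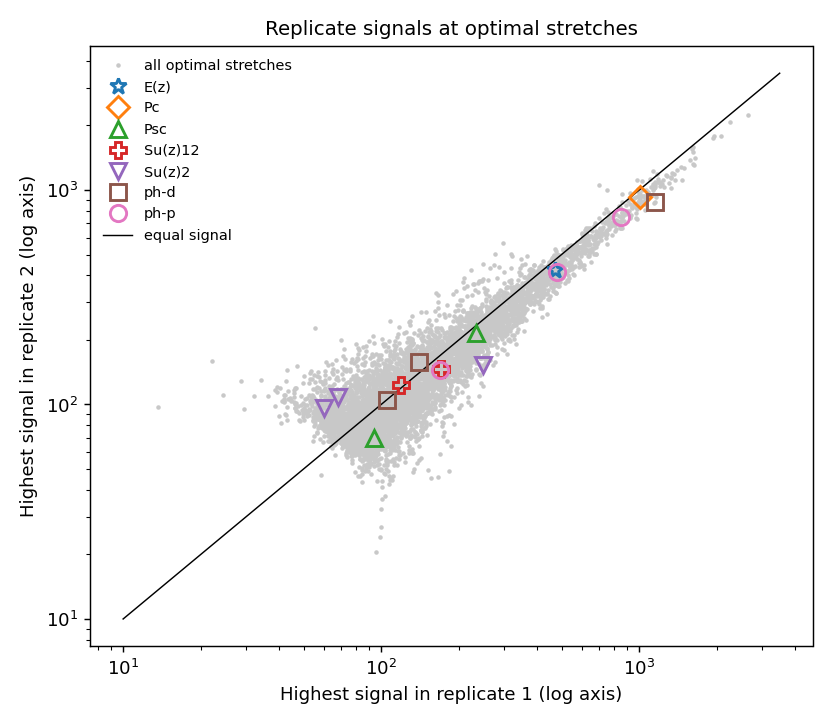
Highest signal in replicate 2 against replicate 1 (log axes) at each optimal stretch listed in both, with members as open symbols and grey points for all 5977. The strong members lie close to the line of equal signal, and the Su(z)2 stretches lie off it on both sides, from 0.626 to 1.63.

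Short motifs of factors known from Polycomb response elements and promoters were counted in 201 bp windows around the 20 summits, on both strands. GAGAG (GAGA factor) was in 2 of 20 windows (10%), both at ph-p, against 20.7% of all optimal windows and 21.7% of the 19876 pooled regions that overlap no optimal one. GCCAT (Pho) was in 6 (30%) against 23.1% and 31.1%, among them both Psc summits, E(z) and the Pfdn6 side of Su(z)12. GAAAAC (Dsp1-type) was in 8 (40%) against 19.9% and 20.4%. GTGTGT (Combgap) was in 3 (15%) against 12.2% and 16.2%, all at ph-p and ph-d. CACGTG (E-box) and CAGGTA (Zelda) were each in 1 (5%), at Su(z)2 and ph-d. CACGTG was in 1.78% of optimal windows and 2.17% of the other pooled ones, and CAGGTA in 3.74% and 3.75%. TATCGATA (DREF) was in none of the 20, against 2.02% and 1.45%. Summits 200 bp apart share bases, so these windows are not independent. The highest summits of ph-d and Pc, with signals of 1994 and 1936, held none of the 7 motifs. The median G and C content of the 20 windows was 35.1%, against 33.3% over all optimal windows.

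Of 20 other genes of the Polycomb system, 12 (60%) had an optimal summit in the window, against 38.1% of coding genes, and 6 had one within 500 bp of a start site, against 21.1%. Their windows were long too, with a median of 9.53 kb, and 10 of the 20 fell in the group of longest windows, where 59.3% of coding genes had a summit. The 6 were Kdm2, jing, l(3)73Ah, lolal, E(Pc) and corto, and their summits near start sites were weak to modest. Kdm2 encodes a histone demethylase of the dRAF complex, which also holds Psc and Sce. It had 9 optimal summits, of which those within 500 bp of a start site reached 182 and 180.5. Its highest, with 2344 (rank 28), was intronic, 4266 bp past a start site. At lolal, which encodes a BTB protein that works with the GAGA factor, the signal was 387 (rank 1838) at 49 bp from a start site. At jing, which encodes a zinc finger partner of PRC2, it was 237 at 59 bp upstream of one. At l(3)73Ah, a relative of Psc, it was 201, at E(Pc) 161 and at corto, a chromodomain gene, 157. At the other 6 of the 12 genes, phol, Caf1-55, calypso, Pcl, RYBP and Spps, the nearest start site of every optimal summit was another gene's. The highest of these signals were 2218 in the Caf1-55 window and 1350.5 in the phol window. Scm, Asx, Sfmbt, Jarid2, escl, cg, mxc and Utx had no optimal summit. Sfmbt, whose protein forms a complex with Pho, was listed in both replicates just upstream of its start site, with 182 in replicate 1 (rank 2222) and 170 in replicate 2 (rank 2248), but neither in the pooled list nor in the optimal one.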

How the data were processed

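Chromatin bound by CG7556-GFP was sequenced in 2 replicates of 1 group of embryos. Per the deposited description files, the authors listed peaks and background regions from each replicate with a control, listed them again from both replicates pooled, and kept an optimal list after thresholding by irreproducible discovery rate. Per the labels' protocols, chromatin was sonicated to 200 to 800 bp. No source used here names the aligner, the peak caller or the threshold. The deposited signal is the authors' value for each region, and its scale is unstated. It was used within a list to rank and describe regions, and across lists it was set side by side and, for the replicates, divided, although their scales may differ. Read depth is unknown. The summit is the deposited region start plus the deposited offset.

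The dm6 lists were used, with 2 mitochondrial regions of replicate 1 left out, giving 29998 to 30000 regions for each pooled or replicate list. Gene models were those of Ensembl release 115 (BDGP 6.54), without transposable elements and pseudogenes, and sequence from RefSeq Release 6. Distances, counts, words of 50 bases and motifs were computed with Python 3.11.15, pandas 2.3.3 and Biopython 1.88, and the counting was tested on simulated data. Ranks run from the highest signal down. The only p-value is that of an exact sign-flip test of the ph-p to ph-d ratio.

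All 10 members are named with their optimal summits, and so are the genes nearest to them and other Polycomb genes with a summit within 500 bp of a start site. Further genes were named after their values were seen. The members and lists were chosen with earlier results of these data known. Alternatives were other flanks and distances, the stronger part of the optimal list, each replicate alone, region overlap, and nearest start sites only.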

Additional observations from a re-analysis of the deposited data

How the results depend on the processing

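The count of 7 members with an optimal summit stayed between 6 and 9 under the 8 other settings, and the count of 4 within 500 bp of a start site between 3 and 5 under 6. Pc was lost with the span alone, a 500 bp flank or nearest start sites only. Sce and esc were gained with a 5 kb flank. For all counts in a single replicate, its list was cut to the 7184 strongest regions. On that basis, Psc joined those within 500 bp of a start site in replicate 2 alone. The PRC1 count ran from 4 to 6 and the PRC2 count from 2 to 3. Of the 20 other Polycomb genes, 5 remained with the span alone and 6 with a 500 bp flank or nearest start sites only, against 12, and 15 with a 5 kb flank, 10 in the stronger part of the list, 13 with region overlap and 13 to 15 in single replicates. The share of all coding genes fell to 14.8% with the span alone and 22.0% with nearest start sites only, and rose to 52.4% with the 5 kb flank that gave 9 members. The highest signal at ph-p was 750.1 to 846 in single replicates and 1994 with a 5 kb flank, which takes in the ph-d peak. At ph-d it was 882 to 1152 in single replicates, whose scale is their own, and 306 in the span alone. The ph-p to ph-d ratio was 0.734 to 0.850 in single replicates, 1.0 with a 5 kb flank and 5.72, the other way round, in the span alone, because the ph-d peak lies upstream of the gene. No paired analysis between conditions was possible because both replicates belong to 1 group.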
